A study of Mus musculus with 8 samples.

Results

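Immunoglobulin heavy and light chain RNA was followed in 2 mouse pre-B leukaemia lines, 18-81 and 70Z/3, on 8 one-colour Agilent arrays. Probes were taken by name (beginning Igh, Igk or Igl, with Ighmbp2 and Igll1 left out) or by a description that names the immunoglobulin heavy chain, kappa or lambda. This gave 63 of the 55681 probes on the array. Of these, 58 target immunoglobulin chains, and 5 do not: 2 probes of Rbpj, 2 of Rbpjl and 1 of Iglon5, which the wording of names and descriptions drew in and which are kept apart here. The 58 are 12 heavy constant, 19 heavy variable, 1 heavy chain probe whose region is not stated, 2 kappa constant, 20 kappa variable and 4 lambda probes.

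The 4 groups, with 2 arrays each, are 18-81 cells given a synthetic pre-miR-125b duplex, 18-81 cells given the miR-Neg control duplex, 70Z/3 cells given pre-miR-125b, and 70Z/3 cells given miR-Neg. Per the labels' protocols, cells were lipofected with 10 nM of duplex, given new medium at 8 h and lysed for RNA at 48 h. The 2 replicates of each group come from 2 independent experiments, per the series' design text. Each line is a single transformed culture, so a difference between the lines is one between these 2 cultures.

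An antibody heavy chain is read from a variable exon, assembled by rearrangement of V, D and J segments, spliced to a constant region: mu first, delta by alternative splicing, and gamma, epsilon or alpha after class switching. Pre-B cells pair mu with a surrogate light chain of Vpreb and lambda5 (Igll1) before kappa or lambda is rearranged. A clone uses 1 rearranged heavy variable segment, so variable-segment RNA marks the clone. 70Z/3 is known for a rearranged kappa gene that is little transcribed until lipopolysaccharide or interferon-gamma is given. 18-81 is an Abelson virus-transformed line known to yield gamma-expressing subclones in culture. Arid3a (Bright), an activator of heavy chain transcription, is known as a target of miR-125b.

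The mature miR-125b strand (RefSeq, GRCm38.p6) is shown with its seed, bases 2 to 8, in capitals, because the duplex supplies it.
miR-125b-5p: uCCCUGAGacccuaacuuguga

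Some 60-base heavy chain probes that differed between the lines are shown first, because they carry the comparison of heavy variable RNA. Which segment each line uses was not tested. Probes are named here by chain and by the transcript identifier in the array's annotation. VH stands for heavy variable and VK for kappa variable. Capitals in the Igh complex and VH ENSMUST00000103532 probes mark an 18-base run that they share, since related segments can cross-hybridize through such stretches.
VH ENSMUST00000103442: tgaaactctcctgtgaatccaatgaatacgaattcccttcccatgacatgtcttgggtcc
Igh complex XM_001472404: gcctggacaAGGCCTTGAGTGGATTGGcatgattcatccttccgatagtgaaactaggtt
VH ENSMUST00000103532: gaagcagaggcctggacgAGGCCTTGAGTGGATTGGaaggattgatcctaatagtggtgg
VH ENSMUST00000103521: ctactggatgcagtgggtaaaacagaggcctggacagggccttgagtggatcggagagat
VH ENSMUST00000103522: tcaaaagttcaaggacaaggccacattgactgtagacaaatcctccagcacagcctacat

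The probe for VH ENSMUST00000103442 lies at chr12:114816899-114816958 on mm9, minus strand, and that for VH ENSMUST00000103532 at chr12:116699334-116699393. The probes for VH ENSMUST00000103521 and VH ENSMUST00000103522 lie between them, at chr12:116358101-116358160 and chr12:116383750-116383809. The Igh complex probe has no position in the array's annotation. Its letters match those of VH ENSMUST00000103532 at 40 of 51 aligned bases. The probe of VH ENSMUST00000103521 matches that of VH ENSMUST00000103525 at 46 of 52 aligned bases, with a run of 29. It also shares a run of 19 with that of VH ENSMUST00000103493, so these probes may not read separate segments.

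Kappa variable probes are shown in their 2 sets, 1 read in each line, with the run shared within a set in capitals.
VK LOC100046350: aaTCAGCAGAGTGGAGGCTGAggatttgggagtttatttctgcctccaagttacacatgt
VK ENSMUST00000103305: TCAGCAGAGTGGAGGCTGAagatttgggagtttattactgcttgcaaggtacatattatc
VK ENSMUST00000103352: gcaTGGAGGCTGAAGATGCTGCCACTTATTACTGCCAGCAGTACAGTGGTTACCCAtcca
VK ENSMUST00000103356: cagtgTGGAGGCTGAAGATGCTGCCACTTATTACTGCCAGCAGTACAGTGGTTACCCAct

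The first pair, read in 18-81, matches at 50 of 58 aligned bases, with a run of 19. The second pair, read in 70Z/3, matches at 54 of 58 with a run of 53, so these 2 probes cannot be taken as separate segments. They lie on chromosome 6 of mm9, in the order chr6:67967417-67967476, chr6:67710344-67710403, chr6:69349806-69349865 and chr6:69494355-69494414.

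The constant-region probes of mu, IgG2a and kappa are shown because they carry the comparisons of isotype and of kappa: mu at chr12:114659630-114659689, IgG2a at chr12:114525600-114525659 and kappa at chr6:70676692-70676751.
mu constant: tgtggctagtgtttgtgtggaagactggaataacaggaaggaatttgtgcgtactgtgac
IgG2a constant: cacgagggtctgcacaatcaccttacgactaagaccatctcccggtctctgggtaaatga
kappa constant: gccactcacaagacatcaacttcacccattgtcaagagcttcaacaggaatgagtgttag

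Values below are on a log2 scale, as processed intensity relative to the 75th percentile of its own array, so 0 is the level of that percentile. Each probe is read against itself across arrays. A probe was tested if its signal was well above background, by the scanner software's call, on both arrays of at least 1 group. That held for 25316 probes, among them 31 of the 58 immunoglobulin probes: 8 heavy constant, 9 heavy variable, the probe of unstated region, 1 kappa constant, 9 kappa variable and 3 lambda. Of the 27 not tested, 21 were above background on no array, epsilon among them, and all 27 read between -6.94 and -2.48. The share of probes well above background was 38.0% to 45.1% per array, and no spot was saturated. The lowest 75th percentile, 335 intensity units, was that of 70Z/3 miR-Neg replicate 2, and the other arrays ranged from 499.8 to 713. Both lines carried the pre-B receptor genes: all 11 of the list (Cd79a, Cd79b, Vpreb1, Igll1 and others) were well above background on all 8 arrays. Rag1 and Rag2, the recombinase that defines cells in rearrangement, were above background on none.

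The lines differed in which heavy and kappa variable probes were read, and in the levels of delta, gamma and kappa constant RNA that both lines carried. Of the 31 tested probes, 16 were higher and 12 lower in 18-81 than in 70Z/3 (limma, Benjamini-Hochberg adjusted p under 0.05), where 15.8% and 15.9% of all probes tested were called higher and lower. The median difference of the 31 was 2.89, against 0.03 over all probes tested. Neither the count nor the median can be read as support: 11 of the 31 were above background in 18-81 only and 8 in 70Z/3 only, and such probes passed the filter through the line in which they were bright. Of the 12 probes seen in both lines, 5 were higher, 4 lower and 3 not called. Each array reads a whole culture, so fewer expressing cells and less RNA per cell cannot be told apart.

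Different heavy variable probes were bright in each line. VH ENSMUST00000103442 read 5.28 and 5.28 with miR-125b and 5.41 and 4.98 with miR-Neg in 18-81. On no 70Z/3 array was it well above background (-6.58 and -6.16 with miR-125b, -6.11 and -5.39 with miR-Neg). It was thus at least 846-fold higher in 18-81 (limma, adjusted p = 1.06e-07). That p is no support in itself, since the probe passed the filter through 18-81 alone. The bound sets the mean in the bright line against the lowest signal called above background in the other. Such bounds depend on the background method: with normexp, which adds an offset, the fold was 251 for this probe and fell short of the bound for 18 of the 19 immunoglobulin probes that have one, at 1.54-fold or more in the same direction. No other heavy variable probe was higher in 18-81.

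The remaining 8 heavy variable probes and the Igh complex probe were lower in 18-81. The Igh complex probe was dim on every 18-81 array (-4.96 and -4.98 with miR-125b, -6.15 and -6.38 with miR-Neg). It read 2.49 and 2.15 with miR-125b and 2.85 and 2.43 with miR-Neg in 70Z/3, and was at least 118-fold lower in 18-81. Its adjusted p (limma, 1.08e-07) is likewise no support in itself, since the probe passed the filter through 70Z/3 alone. VH ENSMUST00000103521 was likewise dim on all 18-81 arrays (-6.18 to -4.89), against 0.53 and 0.40 with miR-125b and 1.00 and 0.76 with miR-Neg in 70Z/3, and was at least 33.8-fold lower in 18-81. Both were bright on every 70Z/3 array and on no 18-81 array.

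The VH probes ENSMUST00000103532, ENSMUST00000103522, ENSMUST00000103499 and ENSMUST00000103515 were bright in 70Z/3 and still visible in 18-81. VH ENSMUST00000103532 averaged -2.51 ± 0.40 in 18-81 and 2.50 ± 0.25 in 70Z/3 (SD, n = 4 each), a difference of -5.01 ± 0.26 (SE). VH ENSMUST00000103522 averaged -2.48 ± 0.19 in 18-81 and 2.09 ± 0.28 in 70Z/3 (SD, n = 4 each). Its letters have no close match among those of the other probes. Only probe letters were compared, so whether it reads the same transcript as another probe was not tested. VH ENSMUST00000103499 and VH ENSMUST00000103515 differed by -4.67 ± 0.31 and -4.36 ± 0.18. In none of the 4 did the arrays of the lines overlap, which over all probes tested held for 17.7% lower and 18.8% higher in 18-81. On chromosome 12 they lie from 115850457 to 116699393, while VH ENSMUST00000103442 at 114816899 is the tested variable probe nearest the constant genes. VH ENSMUST00000103493, dim on all 18-81 arrays, was at least 3.85-fold lower in 18-81, and VH ENSMUST00000103544 and VH ENSMUST00000103525 at least 1.98-fold and 1.65-fold lower, both faint in 70Z/3.

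Of the 8 heavy constant probes tested, 7 were higher in 18-81: delta, 4 gamma and gamma-like probes and 2 alpha probes. Both alpha probes and the one annotated Ighg were dim on all 70Z/3 arrays and so passed the filter through 18-81. The remaining probe was mu, the isotype of the pre-B receptor. Mu read 7.48 and 6.77 with miR-125b and 7.66 and 6.60 with miR-Neg in 18-81, and 6.48 and 5.40 with miR-125b and 6.61 and 5.56 with miR-Neg in 70Z/3. The lines overlapped narrowly, as the lowest 18-81 array (6.60) read just under the highest 70Z/3 array (6.61). The difference of 1.11 ± 0.39 missed the threshold (adjusted p = 0.0655), and it passed once the replicate number entered the model as a block (1.11, adjusted p = 0.000952).

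Gamma RNA was read in both lines. The probe ENSMUST00000103418 read 4.92 and 3.61 with miR-125b and 4.98 and 3.71 with miR-Neg in 18-81. In 70Z/3 it read 0.66 and 1.15 with miR-125b and 0.61 and -0.64 with miR-Neg, a difference of 3.86 ± 0.44 (adjusted p = 0.000247). All 18-81 arrays were above all 70Z/3 arrays.

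The IgG2a probe averaged 2.78 ± 0.79 in 18-81 and -1.28 ± 1.36 in 70Z/3 (SD, n = 4 each), a difference of 4.06 ± 0.59 (limma, adjusted p = 0.00102). It was 3.46 without 70Z/3 miR-Neg replicate 2 and 4.65 without 70Z/3 miR-Neg replicate 1. A probe annotated as a gamma-2a-like RNA, 44 bases from it on the same strand, averaged 4.04 ± 1.13 in 18-81 and 1.15 ± 0.74 in 70Z/3 (SD, n = 4 each) and differed by 2.89 ± 0.38. The probe annotated Ighg read -3.15 to -0.94 in 18-81, was dim on all 70Z/3 arrays and was at least 5.42-fold higher in 18-81. Gamma genes are related in sequence, so these probes may read more than 1 of them.

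Delta, which is spliced from the same precursor as mu, read 1.22 and 3.38 with miR-125b and 0.97 and 2.79 with miR-Neg in 18-81. In 70Z/3 it read -0.70 and -0.47 with miR-125b and -1.01 and -1.35 with miR-Neg. The difference was 2.97 ± 0.54 (adjusted p = 0.00349), with no overlap. Both alpha probes, 45 bases apart, were above background on every 18-81 array and on no 70Z/3 array. The first was at least 7.18-fold and the second at least 3.21-fold higher in 18-81, although their readings in 18-81 were low (-2.17 to -1.15 and -3.23 to -2.45).

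Kappa constant RNA was read in both lines and was higher in 18-81. It read 5.90 and 4.96 with miR-125b and 5.99 and 5.49 with miR-Neg in 18-81, against 0.97 and 0.53 with miR-125b and 1.23 and -0.48 with miR-Neg in 70Z/3. The difference of 5.02 ± 0.41 (adjusted p = 3.1e-05) is a 32.5-fold one, and the lines did not overlap. The second kappa constant probe, from a cDNA, was above background nowhere.

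Kappa variable probes went both ways: 5 were higher in 18-81, 3 were lower and 1 was not called. The 5 were dim on all 70Z/3 arrays. VK LOC100046350 read -0.28 and -0.37 with miR-125b and -0.87 and 0.04 with miR-Neg in 18-81, at least 17.3-fold higher than in 70Z/3. VK ENSMUST00000103305, which shares its shown run, was at least 10.74-fold higher in 18-81. VK ENSMUST00000103301 was at least 5.76-fold higher, and its annotated position on mm9, chr6:43031517-43031576, lies far from the other tested kappa probes, which span 67710344 to 70676751. The 2 probes of VK ENSMUST00000103401 were at least 4.63-fold and 2.8-fold higher.

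The 3 kappa variable probes lower in 18-81 were dim on every 18-81 array and faint in 70Z/3. VK ENSMUST00000103352 read -2.07 and -2.48 with miR-125b and -1.75 and -3.66 with miR-Neg in 70Z/3, and was at least 3.76-fold lower in 18-81. VK ENSMUST00000103356 was at least 3.55-fold and VK ENSMUST00000103360 at least 1.15-fold lower in 18-81. In 70Z/3 each of the 3 was lowest on miR-Neg replicate 2, as the kappa constant probe was, and none of the 3 was well above background there. VK ENSMUST00000103347 was above background on all 8 arrays (-2.30 to -1.91 in 18-81, -2.02 to -1.10 in 70Z/3) and did not pass the test between the lines (-0.47 ± 0.26, adjusted p = 0.212).

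Of the lambda probes, 2 of 3 tested were higher in 18-81. Lambda ENSMUST00000103749 read -2.26 and -1.06 with miR-125b and -2.16 and -0.77 with miR-Neg in 18-81, was above background on no 70Z/3 array, and was at least 7.57-fold higher, and lambda ENSMUST00000103746 at least 2.41-fold. Lambda ENSMUST00000103741 was read in both lines and did not pass (0.52 ± 0.28, adjusted p = 0.209), and passed with the replicate block (adjusted p = 0.0227).

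Genes that work with the immunoglobulin chains were read beside them, where 15.8% of all probes tested were higher and 15.9% lower in 18-81. Of the 11 pre-B receptor genes, 5 were lower in 18-81 and 1 was higher. Igll1 (lambda5) read 3.97 and 3.31 with miR-125b and 4.78 and 3.70 with miR-Neg in 18-81, against 6.53 and 6.16 with miR-125b and 6.69 and 7.70 with miR-Neg in 70Z/3. The difference was -2.83 ± 0.35 (adjusted p = 0.000367). Vpreb1, its partner, differed by -1.73 ± 0.28, Vpreb2 by -1.57 and the signalling subunit Cd79b by -1.04. The other signalling subunit, Cd79a, did not pass (0.59 ± 0.54, adjusted p = 0.463), but did with the replicate block (adjusted p = 0.0216).

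Among regulators of heavy chain genes, 5 of the 18 tested were higher in 18-81 and none lower. They were the octamer coactivator Pou2af1 (1.63 ± 0.28), Arid3a (1.27 ± 0.20 at its brighter probe, with 0.60 and an adjusted p of 0.0669 at the other), Spib (4.30 ± 0.24), Pax5 and Tfe3. The octamer factor Pou2f2 and the Ets factor Spi1 did not pass (-0.85 and -0.25), although Pou2f2 did with the replicate block (adjusted p = 0.0283). Among regulators of light chain genes, 6 of 16 were higher and 1 lower. Irf8 was higher (2.30 ± 0.19), while Irf4, which binds kappa enhancers with Spi1, was lower (-0.71 ± 0.23, adjusted p = 0.046). Nfkb1 and Nfkb2, subunits of the factor through which 70Z/3 induces kappa, differed by -0.81 and -0.11 without passing (Nfkb1 passed with the replicate block, adjusted p = 0.0223), and Rel was above background nowhere. Of the 10 rearrangement genes tested, 3 were higher in 18-81 (Foxo1, Xrcc4, Lig4) and 1 lower (Dntt, the terminal transferase that adds junctional bases).

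Of 10 genes of class switching and secretion, 5 were higher in 18-81 and 1 lower. Jchain, the joining chain of polymeric IgM and IgA, read 3.11 and 5.30 with miR-125b and 3.19 and 5.27 with miR-Neg in 18-81. It was dim on every 70Z/3 array (-6.89 to -5.74), and at least 415-fold higher in 18-81 by the same bound, against 146-fold with normexp background. Mzb1, a chaperone of IgM assembly, was higher by 9.35 ± 0.27 on the log2 scale. Prdm1 and Xbp1, regulators of plasma cell secretion, did not pass (-0.75 and 0.40; Prdm1 passed with the replicate block, adjusted p = 0.00727), and the plasma cell surface marker Sdc1 was among the lower genes.

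Marker lists also differed between the lines, with calls in both directions for most of them. Of the 14 B-cell precursor markers tested, 4 were higher and 8 lower in 18-81. Of the 7 plasma cell markers tested, 3 were higher (Jchain, Mzb1, Slamf7) and 2 lower (Irf4, Sdc1). Their summed level was 7.64 to 7.95 with miR-125b and 7.67 to 7.89 with miR-Neg in 18-81, against 5.47 to 5.91 with miR-125b and 5.75 to 6.50 with miR-Neg in 70Z/3. T cell markers were 3 higher and 3 lower of 9, with Cd3g dim in 70Z/3 and a summed level of 4.22 to 4.96 in 18-81 and 5.67 to 7.34 in 70Z/3. Myeloid markers were 0 higher and 2 lower of 6, at 5.47 to 6.36 in 18-81 and 5.02 to 5.60 in 70Z/3. Erythroid markers were 2 higher and 1 lower of 3, at -0.19 to 0.61 in 18-81 and -1.87 to -1.29 in 70Z/3, with Hba-a1 dim on all 8 arrays. With normexp background, Cd8b1 (1.88 in the main fit, 0.22 with normexp) and Gata1 (2.83 and 0.61) were not called. The part of these marker lists in the line differences was not tested.

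Adding miR-125b moved no immunoglobulin probe past the threshold in either line. None of the 31 was called in 70Z/3, in 18-81, in the average of both lines or in the difference of the effects, where 0% of all probes tested were called in each direction. The smallest adjusted p among the 31 was 0.763 in 70Z/3 and 1 in 18-81. At an unadjusted p under 0.05, 0 probes were higher and 1 lower in 70Z/3, where 2.99% and 3.05% of all probes passed. In 18-81, 4 were higher and 1 lower, where 0.608% and 0.648% of all probes passed. These unadjusted counts, and those below, come from the fit without pairing. With the replicate block, 4959 of all probes tested passed in 70Z/3 in place of 1530, and 700 in 18-81 in place of 318. With 2 arrays a group, an adjusted p over all probes that misses the threshold does not show that a probe was unaffected.

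Mu, the chain of the pre-B receptor, did not pass the test between duplexes. Its difference was 0.00 ± 0.56 in 18-81, from -0.18 in the replicate 1 pair and 0.17 in the replicate 2 pair. In 70Z/3 it was -0.14 ± 0.56, from -0.13 and -0.16. Leaving out 1 array at a time moved it between -0.53 and 0.53 in 18-81 and between -0.68 and 0.40 in 70Z/3. Each such fit breaks a replicate pair. From replicate 1 to replicate 2 mu changed by -0.71 with miR-125b and -1.06 with miR-Neg in 18-81, and by -1.08 and -1.05 in 70Z/3. The SE, from a fit without pairing, and these ranges thus include the shift between experiments. So few pairs do not fix a small change.

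Arid3a itself had 2 probes that disagreed in 18-81. The brighter one read 2.89 and 2.75 with miR-125b against 3.23 and 2.99 with miR-Neg in 18-81 (-0.29 ± 0.28), and 0.82 and 1.20 with miR-125b against 2.45 and 2.30 with miR-Neg in 70Z/3 (-1.36 ± 0.28, unadjusted p = 0.00139, adjusted p = 0.706). The other differed by -1.67 ± 0.30 in 18-81 and by -1.56 ± 0.30 in 70Z/3 (unadjusted p = 0.000562 and 0.000867, adjusted p = 0.53 and 0.706). No gene of the pre-B receptor, regulator, rearrangement or secretion lists was called in either line.

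In 70Z/3 the 2 replicate pairs disagreed for gamma and kappa. IgG2a differed by -0.03 in the replicate 1 pair and by 3.12 in the replicate 2 pair, where miR-125b read -0.12 and miR-Neg -3.24. Gamma ENSMUST00000103418 differed by 0.05 and 1.80, the gamma-2a-like RNA by -0.10 and 1.80, and kappa constant by -0.26 and 1.00. Of the 3 kappa variable probes of 70Z/3, VK ENSMUST00000103352 differed by -0.32 and 1.17, VK ENSMUST00000103356 by -0.44 and 0.97, and VK ENSMUST00000103360 by -0.18 and 1.32. None of the 3 was well above background on miR-Neg replicate 2 (-3.66, -3.61 and -5.32). Each replicate 2 difference is thus set against a background reading, and the first 2 probes share a run of 53 bases. Every one of these 7 probes was lowest, among the 4 70Z/3 arrays, on miR-Neg replicate 2, the array with the lowest 75th percentile and the fewest probes above background.

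Without that array the differences in 70Z/3 were 0.36 for IgG2a and -0.48 for kappa constant, and without miR-Neg replicate 1 they were 2.73 and 1.23. The effect on gamma and kappa in 70Z/3 thus depended on which control array was used, and the part of that array's lower signal was not tested. Mu, read on the same arrays, differed by -0.13 and -0.16 in the 2 pairs.

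Both miR-125b arrays read below both miR-Neg arrays in 70Z/3 for 14 of the 31 probes and above them for 2, where 22.5% and 15.4% of all probes did. Of the 14, 10 were not well above background on any 70Z/3 array. The median of the 31 was -0.32, against -0.12 over all probes, and over the 20 probes seen in 70Z/3 it was 0.06. Quantile normalization in place of the percentile gave -0.01 for the 31 and -0.01 over all probes, and the percentile of probes detected on all arrays gave -0.13 and 0.07.

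In 18-81, 5 of the 31 probes had an unadjusted p under 0.05. The gamma-2a-like RNA read 3.52 and 2.81 with miR-125b against 5.43 and 4.39 with miR-Neg, a difference of -1.74 ± 0.53 (unadjusted p = 0.0115, adjusted p = 1). Both miR-125b arrays were below both miR-Neg arrays. The IgG2a probe 44 bases away read 3.46 and 2.02 with miR-125b against 3.46 and 2.17 with miR-Neg and differed by -0.08 ± 0.83, and gamma ENSMUST00000103418 also by -0.08. The gamma-2a-like probe differed by 0.85 in 70Z/3, and the difference of its effects, -2.59, had an unadjusted p of 0.00898 (adjusted p = 0.939).

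The 4 probes with an unadjusted p under 0.05 in the other direction were faint in 18-81. VK ENSMUST00000103301 averaged -1.33 ± 0.24 with miR-125b against -2.58 ± 0.26 with miR-Neg (SD, n = 2 each), a difference of 1.61 in the first pair and 0.89 in the second. The fit gave 1.25 ± 0.35 (limma, unadjusted p = 0.00761). VH ENSMUST00000103515 read -3.71 and -3.71 with miR-125b against -4.56 and -4.45 with miR-Neg (limma, unadjusted p = 0.0153). It was above background on the miR-125b arrays alone, and by the bound at least 1.58-fold higher with miR-125b. This bound too depends on the background method, as the log2 difference was 0.79 in the main fit and 0.26 with normexp. VH ENSMUST00000103499 read -3.02 and -3.23 with miR-125b against -3.74 and -5.03 with miR-Neg, the last not well above background, and differed by 1.26 (unadjusted p = 0.0203). That difference was 0.61 without 18-81 miR-Neg replicate 2 and 1.90 without 18-81 miR-Neg replicate 1. The Igh complex probe (unadjusted p = 0.00236) read -6.38 to -4.96 in 18-81, none of it well above background, so no difference is given.

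Apart from the VK probe, these belong to the 6 heavy chain probes bright in 70Z/3, which were grouped after their values were seen. With miR-125b in 70Z/3 the 6 differed by -0.47 to -0.31, where the median over all probes was -0.12, and by -0.28 to -0.13 under the percentile of probes detected on all arrays. In 18-81, 3 of them were above background with both duplexes, VH ENSMUST00000103532, VH ENSMUST00000103522 and VH ENSMUST00000103499, and these differed by 0.13 to 1.26 (0.12 to 0.40 with normexp background). The heavy variable probe higher in 18-81, VH ENSMUST00000103442, differed by 0.08 ± 0.35 with miR-125b in 18-81. Kappa constant there differed by -0.31 ± 0.58, delta by 0.42 ± 0.76, the first alpha probe by -0.14 ± 0.45 and lambda ENSMUST00000103749 by -0.19 ± 0.56. In 18-81, 7 of the 31 probes had both miR-125b arrays above both miR-Neg arrays and 3 below, where 8.2% and 4.97% of all probes did. Some of these were above background on no 18-81 array. They were the Igh complex probe and VK ENSMUST00000103352 among those above, and VK ENSMUST00000103356 and VK ENSMUST00000103360 among those below.

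The difference between the 2 effects, 18-81 minus 70Z/3, was called for none of the 31. At an unadjusted p under 0.05, 4 were higher and 1 lower, where 1.87% and 1.5% of all probes passed. Each of the 4 rests in part on readings not well above background. These were all 18-81 arrays for the Igh complex probe and all 70Z/3 arrays for VK ENSMUST00000103301. For VH ENSMUST00000103515 they were both 18-81 miR-Neg arrays, and for VH ENSMUST00000103499 18-81 miR-Neg replicate 2. Averaged over both lines, 1 probe passed higher (the Igh complex probe, dim on every 18-81 array, unadjusted p = 0.0472) and 0 lower, where 1.48% and 1.2% of all probes did. These probes share arrays and, for related segments, letters, so their counts are not independent of each other.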

How the data were processed

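The 8 Cy3-labelled arrays share 1 slide, which the authors read with Agilent Feature Extraction 10.7.3.1. Its deposited processed intensity is background-subtracted and spatially detrended, and positions are on mm9, per the file headers. Slide row follows the replicate number and slide column the group. The authors' deposited series table of intensity values, normalized between arrays by a method that the sources used here do not give, served as an alternative. Its columns have medians from 14.64 to 14.71 on a linear scale and correlate with the scanner values at 0.9973 or more.

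Control and outlier spots were left out, spots of a probe averaged, and log2 values set relative to each array's 75th percentile. A model of the 4 group means over all 8 arrays was fitted with limma 3.58.1 (R 4.3.3), with Benjamini-Hochberg adjustment over the 25316 probes tested, and was tested on simulated data. Classes came from names, descriptions and positions. Related genes were read from their brightest probe. Named probes were all tested constant-region probes, the 10 largest called differences per direction between lines, and the 5 smallest p per direction for miR-125b. Members and lists were chosen with earlier results of these data known. Same-numbered arrays deviated together in all 6 comparisons of groups (r from 0.38 to 0.64, and from 0.06 to 0.81 over the members). They were taken to stand for 1 experiment each, so the number pairs arrays. Since slide row follows the number, shared deviation cannot tell experiment from slide row. Alternatives covered normalization, background, filter, variance trend, the replicate block and leaving out each array. The number of arrays limits the precision. The values of 2 related genes are not reported here.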

Additional observations from a re-analysis of the deposited data

Results flagged for a closer look

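VK ENSMUST00000103347, a kappa variable probe read on all 8 arrays, had 1 array apart from the other 18-81 arrays. It read -2.30 on 18-81 miR-Neg replicate 1, while the other 3 lay between -1.96 and -1.91. About 1 in 20 such groups of 4 is set apart by chance, and each line was looked at for every tested probe.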

How the results depend on the processing

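No immunoglobulin probe was called for miR-125b in any comparison under any alternative. The replicate block left 0 calls there and gave 18 higher and 12 lower between the lines, against 16 and 12, through mu (1.11, adjusted p = 0.000952) and lambda ENSMUST00000103741. Of the 82 related genes tested it changed 8 calls. Mu also passed with normexp background (1.15) and without 70Z/3 miR-Neg replicate 1 or 18-81 miR-Neg replicate 2 (1.38 each). The count lower in 18-81 was 7 with probes required on all 4 arrays of a line. Between the lines the median of 2.89 became 0.71 with normexp background and -0.30 with no intensity filter, and 2.43 to 3.03 with 1 array left out. In 70Z/3 the median of -0.32 became -0.01 with quantile normalization, -0.01 with the authors' table, -0.13 with the percentile of probes detected on all arrays, -0.28 with normexp, -0.44 with no filter, -0.41 with the stricter filter and -0.41 to -0.15 with 1 array left out. In 18-81 the median of 0.09 became 0.04 with normexp, -0.03 with no filter and -0.02 to 0.34 with 1 array left out. The cause was not tested. Normexp also brought VH ENSMUST00000103442 to 7.97, VK LOC100046350 to 2.47 and VK ENSMUST00000103305 to 2.12, and 18 of 19 bounds between the lines were not reached. No probe named for the lines changed direction. Slide row repeats the replicate number and was not run apart. Signal over background limits the faint probes, and a line dim throughout gives only a bound.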

Other observations

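In 18-81 the constant-region probes also differed between the 2 experiments, in the same way with both duplexes. Replicate 2 minus replicate 1 was 2.16 with miR-125b and 1.82 with miR-Neg for delta, and 0.91 and 0.84 for the first alpha probe. For gamma ENSMUST00000103418 it was -1.31 and -1.27, for IgG2a -1.44 and -1.29, for mu -0.71 and -1.06 and for kappa constant -0.94 and -0.50. In 70Z/3 mu differed likewise (-1.08 and -1.05), while delta did not (0.23 and -0.34). Gamma ENSMUST00000103418 did so there with miR-Neg (-1.25) but not with miR-125b (0.49). Experiment and slide row cannot be told apart.

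Of the probes drawn in by wording, Rbpjl, a relative of the Notch effector Rbpj, had 1 probe dim on all 70Z/3 arrays and at least 11.7-fold higher in 18-81, while its other probe differed by 0.07 ± 0.50. The 2 Rbpj probes differed by 0.01 ± 0.29 and 0.44 ± 0.38 between the lines.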
